A study of Mus musculus with 20 samples.

Results

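The kidney levels of 10 genes of the CSF1 axis and of macrophages were compared between mice with and without *Pkd2*: the ligands *Csf1* and *Il34*, their receptor *Csf1r*, and the macrophage markers *Cd68*, *Mrc1*, *Trem2*, *Lyz2*, *Itgax*, *Cd14* and *Tyrobp*. The genes were chosen by name but with earlier results of these data known, so counts of members called are a description beside the share of all genes. All 10 were found among the 24411 gene rows of the count table. RNA was measured in 1 kidney library from each of 20 mice of the inbred strain C57BL/6, with 5 mice in each group of sex and genotype. Mutants were *Pkd2* fl/fl; *Pax8* rtTA; *TetO* Cre. Controls were littermates that also carried the floxed *Pkd2* alleles but lacked either *Pax8* rtTA or *TetO* Cre. Mutants and controls alike received DOX (doxycycline hyclate, 50 mg/kg) from P27 to P29, and kidneys were collected at P125. The *Pax8* promoter drives rtTA in tubular epithelium, so that deletion is not directed to the macrophages that most of these genes mark. The mice belonged to 3 litters, called A, B and C here, and single mice are named MC, MM, FC or FM (male or female, control or mutant) with a number that is only a name.

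CSF1 and IL34 are cytokines that bind the same receptor tyrosine kinase, CSF1R, on monocytes and macrophages and support their survival, proliferation and differentiation. In the kidney, tubular epithelial cells are a known source of both ligands, and macrophages are known to gather around cysts in polycystic kidney disease. TREM2 is a lipid-sensing receptor of macrophages that signals through the adaptor TYROBP.

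Total counts per mouse lay between 11307741 and 19324073. Levels are given as CPM, counts scaled by TMM to a common library size. The library of FM4 held 76 genes with exactly 1 count, against 708 to 859 in each of the other 19, and 14850 detected genes against 16776 to 17724, so low levels in FM4 are less certain. Results that turn on this mouse are also given without it. *Pkd2* itself was 291 ± 31.1 CPM in male controls and 119 ± 9.86 in male mutants, and 257 ± 49.1 in female controls and 145 ± 33.6 in female mutants (SD, n = 5 each), with no overlap within either sex. The proximal tubule markers *Lrp2* (endocytic receptor) and *Slc34a1* (phosphate transporter) had group means of at least 2435 CPM in every group, as belongs to kidney tissue. In RNA of a whole kidney, more macrophages and more RNA per macrophage cannot be told apart.

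Of the 10 genes, 9 had enough counts to be tested, and each of them was higher in mutants than in controls over both sexes. The median log2 fold change of these 9 genes was 1.45, against −0.0117 over all 14191 genes tested. Each of the 9 passed an adjusted p under 0.01 in edgeR's quasi-likelihood test with Benjamini-Hochberg adjustment over all genes, where 10.0% of all genes tested were called higher in mutants. In males alone, 7 of 9 were called higher, against 5.25% of all genes. In females alone, 1 of 9 was called, against 0.457% of all genes. The lower female count did not come with smaller fold changes: the median over the 9 genes was 1.43 in males and 1.49 in females. *Trem2* fell under the filter on low counts in these comparisons and is described from its counts.

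**Figure D1:**
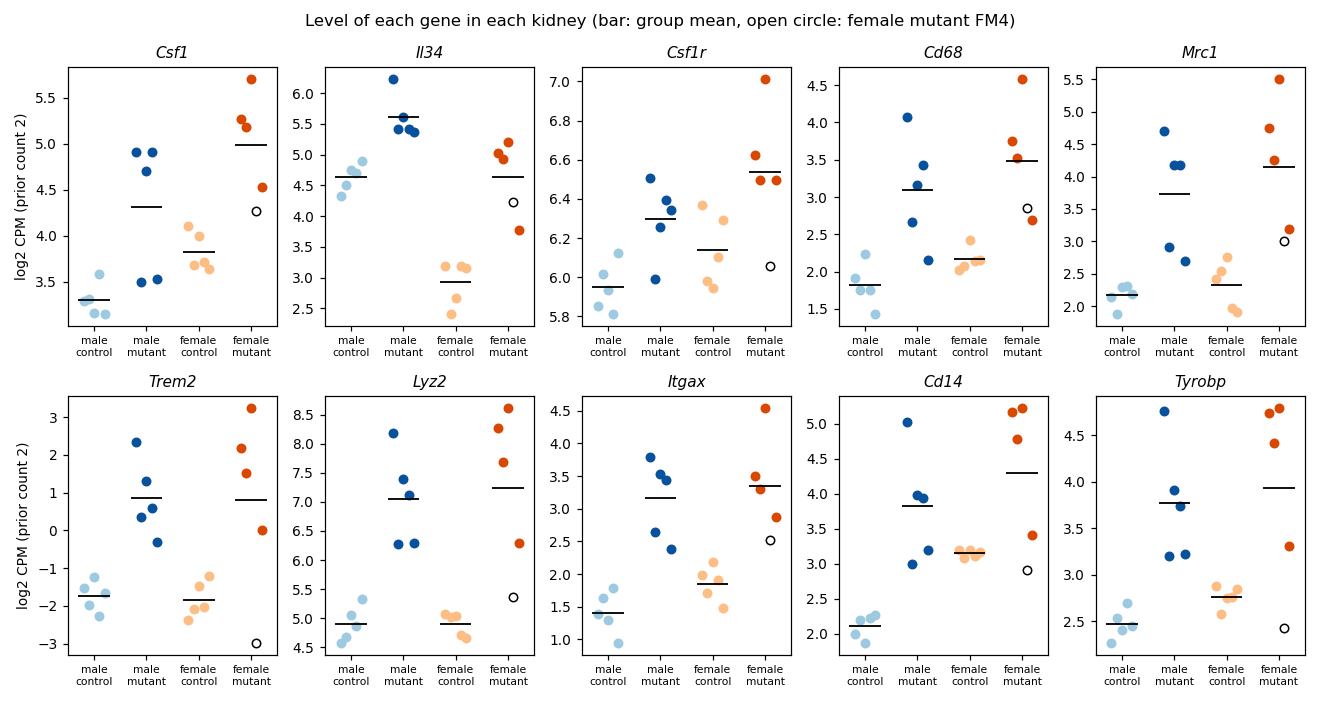
Level of each of the 10 genes (y axis, log2 CPM with a prior count of 2, a scale of its own in each panel) in each kidney of the 4 groups (x axis), with 5 mice a group, a bar at the group mean and FM4 as an open circle. The mutant mean lies above the control mean of the same sex in every panel, and FM4 lies among or below the female controls for *Csf1r*, *Trem2*, *Cd14* and *Tyrobp*.

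*Csf1*, the growth factor for which the axis is named, was 2.01-fold higher in male mutants and 2.42-fold higher in female mutants than in the controls of the same sex. In male controls it was 9.66, 9.78, 8.79, 11.8 and 8.75 CPM in MC1 to MC5, and in male mutants 30.0, 11.2, 25.9, 30.0 and 11.5 in MM1 to MM5. MM2 and MM5 lay just below the highest control, MC4, while the other male mutants were far above it, and the log2 fold change of 1.01 (SE 0.237) had an adjusted p of 0.0125 in edgeR's test. In female controls *Csf1* was 17.1, 12.7, 15.9, 13.0 and 12.3 CPM, and in female mutants 38.4, 36.1, 51.8, 19.1 and 23.0. Every female mutant was above every female control. The log2 fold change was 1.27 (SE 0.239, adjusted p = 0.0170), which also misses the threshold of 0.01. Over both sexes it was 1.14 (SE 0.177, adjusted p = 0.000140).

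*Il34*, the other ligand, was the one member called higher in both sexes. It was 20.0, 22.6, 26.7, 25.8 and 29.8 CPM in MC1 to MC5 and 74.7, 42.4, 49.0, 42.4 and 41.0 in MM1 to MM5. No male mutant overlapped with the male controls, and the log2 fold change was 1.01 (SE 0.179, adjusted p = 0.00355). In females the levels were 9.03, 5.18, 6.25, 8.99 and 8.81 CPM in FC1 to FC5 and 32.3, 30.4, 36.7, 18.5 and 13.6 in FM1 to FM5. The groups did not overlap here either, and the log2 fold change was 1.78 (SE 0.280, adjusted p = 0.00940). The female mutants, at 26.3 ± 9.79 CPM, were close to the male controls, at 24.97 ± 3.77 CPM (SD, n = 5 each).

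*Csf1r*, the receptor, had the smallest log2 fold change of the 9 tested genes in each sex. Male controls had 57.8, 64.7, 61.1, 56.1 and 69.6 CPM and male mutants 90.8, 63.5, 76.3, 84.1 and 81.0. MM2 lay within the control range, and the log2 fold change of 0.35 (SE 0.0998) had an adjusted p of 0.0282. Female controls had 82.5, 63.1, 61.6, 68.6 and 78.3 CPM and female mutants 98.7, 90.2, 129, 66.4 and 90.1. FM4 lay within the control range, and the log2 fold change was 0.46 (SE 0.172, adjusted p = 0.152). Over both sexes *Csf1r* was called, with a log2 fold change of 0.40 (SE 0.0988, adjusted p = 0.00542), which is a 1.32-fold difference.

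*Trem2* was close to the detection limit in controls. Its raw counts were 3, 2, 4, 1 and 3 in MC1 to MC5 and 1, 2, 4, 2 and 4 in FC1 to FC5, so 13 in each control group. Male mutants had 87, 17, 36, 21 and 12 counts, and every one was above every male control. Female mutants FM1, FM2, FM3 and FM5 had 88, 46, 184 and 15 counts, while FM4 had 0. By counting error alone this 0 allows up to 0.265 CPM of its total counts. The library of FM4 held few genes with low counts, so this bound is uncertain. Relative to total counts, the male mutants summed to 11.97 times the male controls (95% interval 6.82 to 22.9), and the female mutants to 25.9 times the female controls (15.0 to 49.2), or 30.3 times without FM4 (17.5 to 57.6). These exact binomial intervals cover counting error only, not the spread between mice. In an edgeR fit with no filter on low counts, the log2 fold change was 3.54 in males (SE 0.531, adjusted p = 0.000370), 4.28 in females (SE 0.984, adjusted p = 0.0254) and 3.93 over both sexes (SE 0.596, adjusted p = 5.25e-05).

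*Tyrobp*, the adaptor through which TREM2 signals, was 5.44 ± 0.610 CPM in male controls and 14.7 ± 7.37 in male mutants (SD, n = 5 each). The male groups did not overlap, with 6.33 CPM in the highest control and 9.09 in the lowest mutant, and the log2 fold change was 1.42 (SE 0.278, adjusted p = 0.00545). In females it was 6.68 ± 0.546 CPM in controls and 18.1 ± 10.1 in mutants. FM4, at 5.26 CPM, lay below every female control, and the log2 fold change of 1.42 (SE 0.381) had an adjusted p of 0.0562. Without FM4 it was 1.65, with an adjusted p of 0.00235.

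*Lyz2*, which encodes lysozyme M, had the largest log2 fold change of the 9 tested genes. Male controls had 23.7, 25.6, 33.3, 28.9 and 39.9 CPM and male mutants 292, 77.0, 168, 138 and 78.4. The lowest male mutant, MM2, was well above the highest control, MC5, and the log2 fold change was 2.29 (SE 0.359, adjusted p = 0.00201). Female controls had 33.6, 32.2, 32.8, 26.0 and 25.3 CPM and female mutants 308, 207, 391, 41.0 and 77.8. All 5 female mutants were above all 5 controls, FM4 by the smallest margin, and the log2 fold change was 2.71 (SE 0.495, adjusted p = 0.0152). Over both sexes the log2 fold change was 2.49 (SE 0.332, adjusted p = 3.98e-05), and the lowest mutant of either sex, FM4, was just above the highest control of either sex, MC5. No overlap over both sexes was also found for *Itgax* alone among the other members, against 0.979% of all genes tested in which every mutant exceeded every control.

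*Mrc1*, the mannose receptor that marks tissue-repair and perivascular macrophages, was 4.32, 3.56, 4.81, 4.87 and 4.44 CPM in MC1 to MC5. In MM1 to MM5 it was 25.9, 7.38, 17.9, 18.02 and 6.38. Again MM2 and MM5 were lowest, yet above every control, and the log2 fold change was 1.67 (SE 0.333, adjusted p = 0.00604). In females *Mrc1* was 5.21, 5.73, 6.66, 3.81 and 3.64 CPM in controls and 26.7, 18.9, 45.1, 7.93 and 9.05 in mutants. These groups did not overlap, and the log2 fold change was 2.09 (SE 0.416, adjusted p = 0.0204).

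*Cd14*, the lipopolysaccharide co-receptor of monocytes, was 3.88, 4.45, 3.53, 4.54 and 4.69 CPM in MC1 to MC5 and 32.4, 7.86, 15.7, 15.2 and 9.08 in MM1 to MM5. Every male mutant exceeded every male control, and the log2 fold change was 1.90 (SE 0.352, adjusted p = 0.00431). Female controls were tightly grouped at 9.03, 8.34, 9.08, 8.52 and 8.88 CPM, and female mutants had 35.9, 27.4, 37.2, 7.41 and 10.5. FM4 lay below all controls, and the log2 fold change of 1.39 (SE 0.385) had an adjusted p of 0.0627. Without FM4 it was 1.62, with an adjusted p of 0.00376.

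*Cd68*, a lysosomal glycoprotein of macrophages, rose from 3.46 ± 0.738 to 9.37 ± 4.78 CPM in males (log2 fold change 1.43, SE 0.270, adjusted p = 0.00466), although MM5, at 4.34 CPM, was below the highest control, MC3, at 4.58. In females it was 4.38 ± 0.506 in controls and 12.4 ± 7.01 in mutants, with no overlap (log2 fold change 1.49, SE 0.335, adjusted p = 0.0295). *Itgax*, the integrin CD11c of dendritic cells and of some macrophages, rose from 2.59 ± 0.592 to 9.42 ± 3.67 CPM in males (log2 fold change 1.79, SE 0.226). Its adjusted p of 0.000784 was the smallest of the members in males. In females *Itgax* was 3.54 ± 0.668 and 11.4 ± 6.93 CPM, with no overlap (log2 fold change 1.71, SE 0.350, adjusted p = 0.0223).

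**Figure D2:**
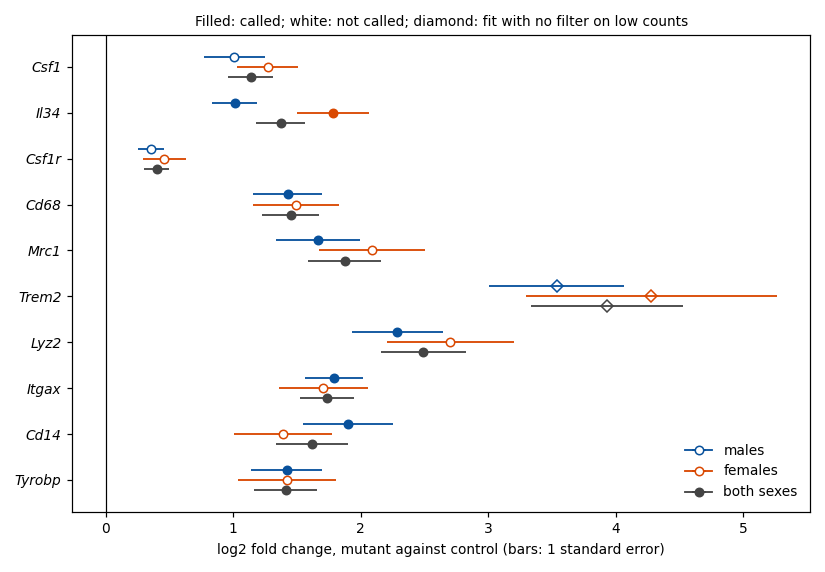
Log2 fold change of mutants against controls (x axis, bars of 1 standard error) for each gene (y axis) in males, females and both sexes. Filled circles passed an adjusted p under 0.01, white circles did not, and diamonds are *Trem2* from the fit with no filter on low counts; *Csf1r* lies nearest to 0, *Lyz2* highest among the filtered genes, and the male and female values lie farthest apart for *Trem2* and *Il34*.

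In males, 6 of the 9 tested members had every mutant above every control, against 8.75% of all genes, and in females likewise 6 of 9, against 3.73%. The number of calls changed when single mice were left out. Groups that do not overlap cannot come to overlap that way, so the orders were not compared with the calls in this respect. In females the count turned on FM4, and the count over all genes moved with it. Without FM4, 8 of the 9 genes were called, all but *Csf1r*, and 4.68% of all genes were called higher. With any other single female left out 0 were called, or 1 without FC5, against 0.0206 to 0.283% of all genes. DESeq2's Wald test called 8 members in females, against 4.45% of all genes, and a single fit of all 20 mice also called 8 (*Trem2* among them), against 3.8%. At an adjusted p under 0.05 in edgeR's test 6 passed, against 3.88% of all genes. In males, 1 member (*Itgax*) was called without MC4, the single control male in litter B, against 0.784% of all genes. Without MC1, MC2 or MC3 (*Trem2* among them), or without MM3, 3 were called, against 1.93 to 2.87% of all genes.

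Comparing mutants and controls within each sex and litter gave the same direction throughout. In all 6 sex-and-litter groups the mean log2 CPM of the mutants was above that of the controls for each of the 10 genes. The differences were narrowest for *Itgax*, from 1.39 to 1.78, and for *Csf1r*, from 0.202 to 0.514. They were widest for *Trem2*, from 1.23 to 4.57, and *Lyz2*, from 0.971 to 3.19. For *Cd14* the lowest was 0.240, in the females of litter C. Litter C, with 1 mouse per sex and genotype, had the smallest male difference for every gene, and several of these values rest on 1 mouse against 1 and carry no error.

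**Figure D3:**
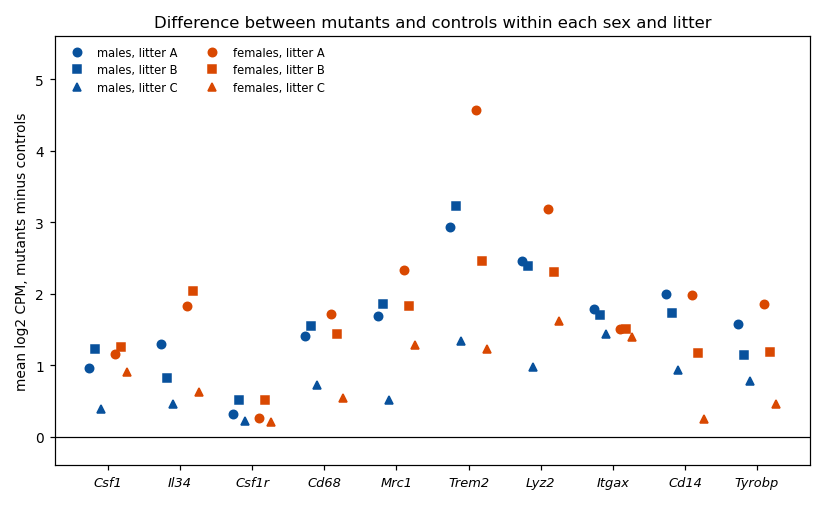
Mean log2 CPM of mutants minus that of controls (y axis) for each gene (x axis), within males (blue) and females (orange) of litters A (circles), B (squares) and C (triangles). All points lie above 0, and those of litter C tend to lie lowest.

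The members placed the mutants in much the same order. MM1 was the highest male mutant for 10 of 10 genes, and MM2 and MM5 were the lowest for 5 genes each. FM3 was the highest female mutant for 10 of 10 genes and FM1 was next for all of them, while FM4 was lowest for 8 and FM5 for 2. Among controls no mouse led for more than 5 genes. Since libraries share their total, these orders are a description of the mice.

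Sex differences among controls were seen for *Il34* and *Cd14*. *Il34* was higher in male controls than in female controls, with a log2 difference of 1.72 (SE 0.165, adjusted p = 1.11e-05), and the lowest male, at 20.0 CPM, was above the highest female, at 9.03. *Cd14* was lower in male controls, with a log2 difference of −0.99 (SE 0.131, adjusted p = 0.000153), and these groups did not overlap either. Thus 2 of 9 tested members were called, against 17.8% of all genes. For *Cd14* the call was lost when all 20 mice entered 1 fit (log2 difference −1.12, adjusted p = 0.0612). *Csf1* was lower in every male control than in any female control, but its log2 difference of −0.50 (SE 0.132) had an adjusted p of 0.0139. For *Mrc1* and *Lyz2* the differences were −0.07 (SE 0.202) and 0.07 (SE 0.158). *Trem2* was not tested between the control groups.

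Among mutants 0 of 10 members were called between the sexes in edgeR's test (1 at an unadjusted p under 0.05), against 5.42% of all genes. *Il34* was still higher in every male mutant than in any female mutant, by 0.92 (SE 0.232, adjusted p = 0.0243), and was called by DESeq2's Wald test (adjusted p = 0.00146) and in the fit of all 20 mice (adjusted p = 0.00774). The other 9 genes had lower means in males, with log2 differences from −0.25 to −0.82 and adjusted p-values of at least 0.182. The response to *Pkd2* loss itself was compared between the sexes by the sex-by-genotype term. 0 of 10 members passed in edgeR's test, against 0.0% of the 14820 genes tested, and DESeq2's Wald test also called 0 members. *Il34* alone had an unadjusted p under 0.05 (term −0.74, SE 0.344, adjusted p = 1 in edgeR's test), with the smaller rise in males, where controls already had the higher level. The term of *Cd14* was 0.55 (SE 0.566) and that of *Lyz2* −0.38 (SE 0.649), so differences of these sizes between the sexes were within the error.

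The balance of the ligands is given for each sex, since *Il34* differed between male and female controls. Per kilobase of exon, *Il34* was 12.7 ± 1.92 CPM in male controls against 1.85 ± 0.238 for *Csf1*, and in female controls 3.91 ± 0.924 against 2.69 ± 0.405, where the ranges overlapped. Within single mice the log2 ratio of *Csf1* to *Il34* (in CPM, with no length scaling) was −1.34 ± 0.313 in male controls and −1.29 ± 0.598 in male mutants, a difference of 0.0461 (two-sided exact permutation test, p = 0.897). In females it was 0.902 ± 0.401 in controls and 0.357 ± 0.272 in mutants, a difference of −0.545 (exact permutation p = 0.0397, or 0.0595 adjusted over the 6 ratio comparisons).

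The markers were also set against the receptor within each mouse. The log2 ratio of *Mrc1* to *Csf1r* was higher in mutants by 1.21 in males (exact permutation p = 0.0238) and by 1.42 in females (p = 0.0159 in the exact permutation test), both 0.0476 after adjustment. For *Trem2* to *Csf1r* the difference was 2.24 in males (exact permutation p = 0.00794, the smallest that 5 mice against 5 allow, adjusted 0.0476) and 2.23 in females (exact permutation p = 0.0635, adjusted 0.0762). Without FM4 the female difference was 3.06 (adjusted exact permutation p = 0.0238). *Trem2* had at most 4 counts in any control and 0 in FM4. The sizes of its ratios therefore depend on the prior count of 2. When medians replaced means, 0 of the 6 comparisons passed an adjusted p under 0.05.

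Per kilobase of exon, *Lyz2* had the highest level of the 10 genes in every group, at 23.0 ± 4.94 CPM in male controls, 114 ± 66.9 in male mutants, 22.8 ± 3.03 in female controls and 156 ± 113 in female mutants. *Trem2* had the lowest, from 0.0337 ± 0.0200 in female controls to 0.703 ± 0.745 in female mutants. In male controls the order below *Lyz2* was *Il34* (12.7), *Csf1r* (10.7), *Tyrobp* (8.15), *Cd68* (2.75), *Cd14* (2.44), *Csf1* (1.85), *Mrc1* (0.690) and *Itgax* (0.538). Of these neighbours, *Il34* and *Csf1r*, *Cd68* and *Cd14*, *Cd14* and *Csf1*, and *Mrc1* and *Itgax* overlapped between mice. In female controls *Csf1r* (12.3) and *Tyrobp* (10.0) followed *Lyz2*, and *Il34* (3.91) ranked behind *Cd14* (5.06). In female mutants *Tyrobp* (27.1) stood next to *Lyz2*, and every neighbouring pair overlapped. On GRCm38 the ligand genes lie on chromosome 3 from 107741048 to 107760469 (*Csf1*) and chromosome 8 from 110741829 to 110805924 (*Il34*), and *Csf1r* lies on chromosome 18 from 61100598 to 61132149.

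KBW, the kidney weight as a percentage of body weight, was 1.68% ± 0.338 in male mutants and 1.18% ± 0.261 in female mutants, against 0.692% ± 0.117 and 0.615% ± 0.0448 in the controls (SD, n = 5 each). Among the 5 female mutants, the order of their mean rank over the 10 genes (FM3, FM1, FM2, FM5, FM4) was also the order of their KBW (1.46, 1.38, 1.24, 1.00 and 0.836%). Among the male mutants MM1 had both the highest KBW (2.15%) and the highest levels, and MM2 the lowest KBW (1.22%), but MM5 had low levels at a KBW of 1.71%. With 5 mice a sex, no correlation was computed within a sex.

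With sex as a term, all 10 members had a positive slope of log2 level on KBW across the 10 mutants, and an unadjusted p under 0.05 in edgeR's test. Of all 14416 genes tested, 3212 had an unadjusted p under 0.05 in either direction, and 44.9% had a positive slope. The slope per percentage point of KBW was 3.05 for *Lyz2* (SE 0.566, adjusted p = 0.0302), 2.73 for *Cd14* (SE 0.431, adjusted p = 0.0271), 2.34 for *Tyrobp* (SE 0.431, adjusted p = 0.0302) and 2.57 for *Mrc1* (SE 0.582, adjusted p = 0.0442). The smallest was 0.73 for *Csf1r* (SE 0.212, adjusted p = 0.0807). At an adjusted p under 0.01, 0 of 10 members and 0.0% of the 14416 genes tested passed, while DESeq2's Wald test called 6 members, against 2.96% of all genes with a positive slope. At an adjusted p under 0.05, 4 of 10 members had a positive slope, against 1.99% of all genes. These slopes depended on the sex term and on single mice. Without the sex term the slope of *Lyz2* was 1.47 (adjusted p = 0.432) and that of *Cd14* 1.00 (adjusted p = 0.548). Leaving out MM1 raised the adjusted p of every member to at least 0.204, and leaving out FM4 to at least 0.119.

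Over the 10 mutants without regard to sex, the relations with KBW were weaker for the 9 genes other than *Il34*. *Lyz2* had a Pearson r of 0.561 (permutation p = 0.0914) and a Spearman rho of 0.539 (permutation p = 0.113), and *Csf1* had an r of 0.137 (permutation p = 0.708) and a rho of 0.261 (permutation p = 0.470). For the 9 genes other than *Il34*, r lay between 0.137 and 0.573. Without MM1 and FM4, the mice farthest from the median KBW, it lay between −0.0583 and 0.172, so these relations rested on those 2 mice. Over all 14416 genes the median r was 0.0248, and 13.0% of genes had an r above 0.5. For *Il34* the pooled r was 0.892 (permutation p = 0.00062), and 0.789 without MM1 and FM4. Every male mutant was above every female mutant for *Il34*, and males had the higher mean KBW, so this r does not separate KBW from sex. Its slope with sex as a term was 1.23 (SE 0.308, adjusted p = 0.0565).

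**Figure D4:**
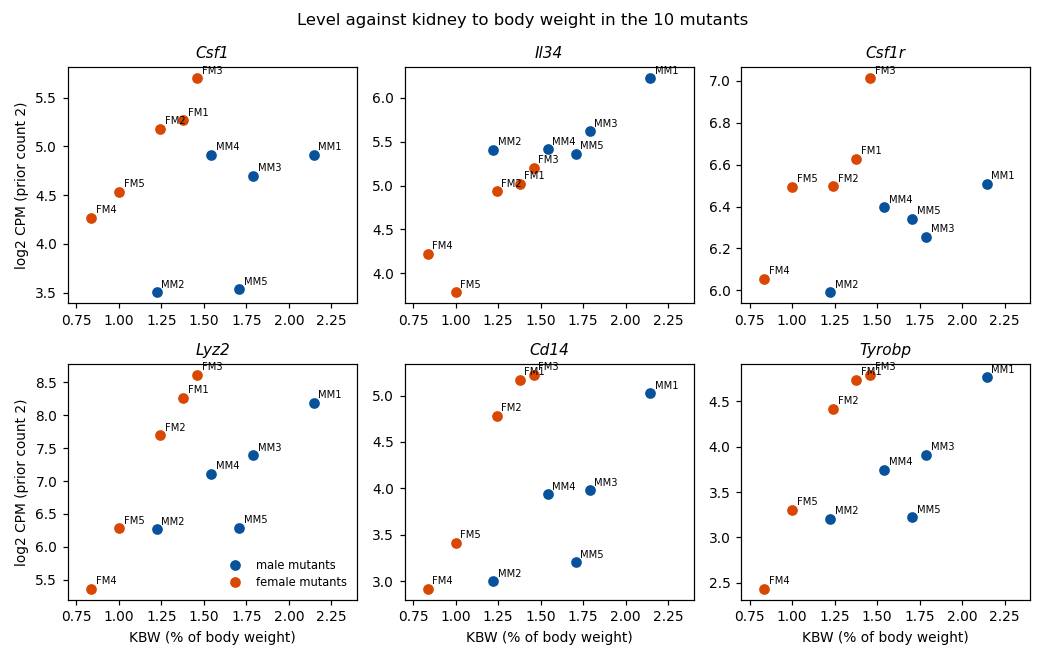
Level (y axis, log2 CPM with a prior count of 2) against KBW (x axis, percent of body weight) in each of the 5 male (blue) and 5 female (orange) mutants for 6 of the 10 genes. Within each sex the mice of higher KBW tend to lie higher, MM5 lies low for its KBW of 1.71% except in *Csf1r*, and the sexes are offset from each other.

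Genes whose pattern over the 20 mice was most like that of a member were found by the root mean square difference of centred log2 CPM, among 14819 genes. For *Csf1* these were *Arl4c* (0.204), *Chrnb1* (0.206), *Mmp14* (0.207) and *Apobec3* (0.210), and the nearest member was *Cd68* at 0.318. For *Il34* the nearest were *Frzb* (0.354), *1700016C15Rik* (0.383), *Ugt2b5* (0.442) and *Cenpe* (0.451), farther away than those of *Csf1*. For *Csf1r* they were *Arap1* (0.137), *Vars* (0.153), *Pvrl2* (0.155) and *1700017B05Rik* (0.164). The nearest member was *Tyrobp* at 0.888 for *Il34*, and *Csf1* at 0.538 for *Csf1r*. By rank among the 14819 genes, *Cd68* was 123 for *Csf1*, *Tyrobp* 601 for *Il34* and *Csf1* 10519 for *Csf1r*. Most genes were thus nearer to *Csf1r* than any other member was. The levels were centred but not scaled, so this distance also reflects how much each gene varied.

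Other genes of the pathway were taken from lists of general knowledge, written with earlier results of these data known, so that their counts are a description beside the 10.0% of all genes called higher over both sexes. Of 18 tested genes that act downstream of CSF1R and TREM2, 12 were called higher over both sexes and 0 lower, with a median log2 fold change of 0.805. *Spi1*, the myeloid transcription factor PU.1, was called with 1.61 (SE 0.272, adjusted p = 0.000300), and *Vav1*, a signalling protein of blood cells, with 1.48 (SE 0.242, adjusted p = 0.000216). Of 5 tested genes of other colony-stimulating factors and their receptors, 2 were called: *Csf2rb*, the shared beta chain of the GM-CSF, IL3 and IL5 receptors, with 1.22 (SE 0.211, adjusted p = 0.000369), and *Il3ra* with 0.999 (SE 0.238, adjusted p = 0.00427).

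Of 13 tested macrophage identity genes, 12 were called higher over both sexes, with a median log2 fold change of 1.58. In males alone 12 were called, against 5.25% of all genes. In females alone edgeR's test called 0 of 13, against 0.457% of all genes, while 10 passed an adjusted p under 0.05 (13 at an unadjusted p under 0.05) and the median log2 fold change was 1.53. *Msr1*, a scavenger receptor, had 2.53 (SE 0.343, adjusted p = 4.64e-05), *Itgam*, the integrin CD11b, 2.36 (SE 0.354, adjusted p = 0.000102), and *Fcgr1*, a high-affinity Fc receptor, 2.04 (SE 0.280, adjusted p = 4.95e-05). Of 6 tested monocyte genes 4 were called, among them the chemokine receptor *Ccr2* with 1.53 (SE 0.221, adjusted p = 7.61e-05). Of 12 genes of lipid-handling and injury-associated macrophages 6 were called. *Gpnmb*, a lysosomal glycoprotein of lipid-laden macrophages, had 4.02 (SE 0.744, adjusted p = 0.000638). It was close to the detection limit in controls, at 0.143 CPM in males and 0.339 in females, so the size of this change is uncertain. In females alone edgeR's test gave *Gpnmb* an adjusted p of 0.0702. *Spp1* (osteopontin), which tubular cells also make, had 1.77 over both sexes (SE 0.274, adjusted p = 0.000134). Of 5 tested genes of resident and perivascular macrophages 1 was called, *Stab1* with 0.625 (SE 0.151, adjusted p = 0.00474), and the median of that list was 0.141. The 5 include *Cd81* and *Maf*, which many other kidney cells also express, and the lists were not tested against each other. Of 10 activation and polarization genes 6 were called, including the pattern receptors *Tlr2* with 1.73 (SE 0.262, adjusted p = 0.000109) and *Clec7a* with 1.69 (SE 0.316, adjusted p = 0.000694).

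Markers of other cell types were summed per mouse. Neutrophil genes stayed near the detection limit, with 1.32 to 2.18 CPM summed over 5 genes in male controls and 1.503 to 4.26 in male mutants, and 0 of 2 tested genes were called by edgeR. T cell genes (6 in all) summed to 3.62 to 6.90 CPM in male controls and 4.71 to 13.6 in male mutants, and to 5.48 to 8.78 in female controls and 4.14 to 18.3 in female mutants. Without FM4 the lowest female mutant was at 10.3 CPM, above every female control. Of 5 tested, *Lck* alone was called over both sexes, with 0.867 (SE 0.2303, adjusted p = 0.00901). B cell and NK cell genes had 0 of 2 and 0 of 1 tested genes called, and dendritic cell genes 1 of 5 (*Cd209a*, 1.22, SE 0.309, adjusted p = 0.00662). B cell genes (5 in all) summed to 2.96 to 5.72 CPM in female controls and 2.155 to 9.92 in female mutants. Without FM4 the lowest female mutant was at 6.46 CPM. In males the ranges overlapped, with 3.665 to 5.11 CPM in controls and 3.10 to 6.10 in mutants. Genes of injured tubules also differed: *Havcr1*, *Lcn2*, *Krt20* and *Vcam1* together had 10.0 to 17.1 CPM in male controls against 82.7 to 634 in male mutants, and 17.4 to 23.0 in female controls against 47.2 to 469 in female mutants. All 4 were called over both sexes. Their part in the levels of *Csf1*, *Il34* and the macrophage markers was not tested.

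**Figure D5:**
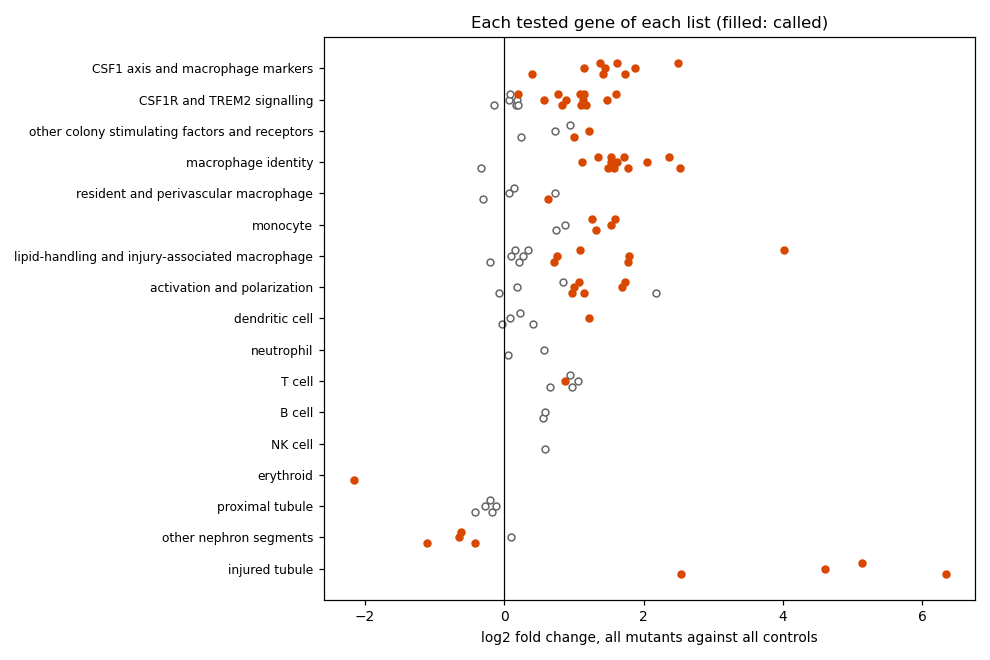
Log2 fold change of all mutants against all controls (x axis) for each tested gene (points) of each gene list (y axis), filled where the adjusted p was under 0.01. Genes of the CSF1 axis and of macrophage identity lie mostly between 1 and 3, those of neutrophils, B cells and proximal tubule have no filled point, and injured tubule genes lie farthest to the right.

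*Lyz2* has a near copy, *Lyz1*, which adjoins it on chromosome 10, so reads that fit both could be split or dropped in counting. Over the 447 bases of their coding sequences the genes share 95.1% of bases, and 38.8% of the 31-base stretches of *Lyz2* also occur in *Lyz1*. The stretch of 90 coding bases with the most differences (positions 43 to 132, GENCODE M21 transcripts, capitals mark the 13 bases that differ) shows where reads can tell the genes apart.
Lyz2: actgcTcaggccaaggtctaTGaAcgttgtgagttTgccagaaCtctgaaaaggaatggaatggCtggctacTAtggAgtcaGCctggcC
Lyz1: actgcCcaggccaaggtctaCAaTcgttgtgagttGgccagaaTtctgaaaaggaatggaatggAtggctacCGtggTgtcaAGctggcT
The level of *Lyz1* was 0.243 ± 0.247 CPM in male controls and 1.10 ± 0.580 in male mutants, and 0.0919 ± 0.0866 in female controls and 2.11 ± 1.69 in female mutants (SD, n = 5 each), so it was a small part of the level of *Lyz2* in each group.

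Promoters are shown for members that rose together, as the reference sequence around their start sites. RefSeq windows of 250 bases before to 50 bases after the start were used for 6 members (*Csf1*, *Cd68*, *Mrc1*, *Trem2*, *Lyz2* and *Itgax*). *Csf1r* and *Cd14* were left out of this search beforehand, so it does not cover the receptor. For *Il34* and *Tyrobp* no window was available. The core GAGGAA, which ETS-family factors such as PU.1 can bind, was searched on both strands (TTCCTC on the other strand). It occurred in 3 of the 6 windows, *Cd68*, *Mrc1* and *Trem2*, and in 28.3% of 32851 promoter windows of the same length, and such a match is a description of letters, not a binding site. The 3 windows are printed 5′ to 3′ on the strand of the gene, with each match in capitals: *Trem2* at chr17:48346151-48346450 (plus strand), *Cd68* at chr11:69666121-69666420 (minus strand) and *Mrc1* at chr2:14229164-14229463 (plus strand), all of GRCm38.p6.
Trem2: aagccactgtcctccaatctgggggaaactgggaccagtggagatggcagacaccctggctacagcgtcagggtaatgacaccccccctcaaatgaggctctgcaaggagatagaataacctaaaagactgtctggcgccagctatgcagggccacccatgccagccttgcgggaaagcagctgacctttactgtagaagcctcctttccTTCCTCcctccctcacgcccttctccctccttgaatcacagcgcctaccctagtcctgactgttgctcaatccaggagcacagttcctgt
Cd68: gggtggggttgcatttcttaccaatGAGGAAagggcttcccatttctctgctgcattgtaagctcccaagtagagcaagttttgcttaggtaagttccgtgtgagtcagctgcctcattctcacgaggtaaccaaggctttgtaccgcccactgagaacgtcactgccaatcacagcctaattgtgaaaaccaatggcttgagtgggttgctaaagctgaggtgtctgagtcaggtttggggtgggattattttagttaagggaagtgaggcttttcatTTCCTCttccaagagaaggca
Mrc1: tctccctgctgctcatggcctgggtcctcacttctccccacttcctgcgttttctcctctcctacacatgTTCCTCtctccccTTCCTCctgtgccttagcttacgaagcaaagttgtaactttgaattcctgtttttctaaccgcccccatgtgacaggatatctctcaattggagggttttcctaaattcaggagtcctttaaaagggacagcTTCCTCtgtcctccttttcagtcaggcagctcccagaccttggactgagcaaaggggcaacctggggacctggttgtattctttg
*Cd68* held 2 matches, *Mrc1* 3 and *Trem2* 1. The other 3 members searched, *Csf1*, *Lyz2* and *Itgax*, rose as well with no match in their windows.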

How the data were processed

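The authors trimmed reads with fastp 0.23.2, aligned them to mm10 with STAR 2.7.10b, and deposited raw counts, whole numbers per gene symbol and mouse without normalization. The counting tool, gene annotation and strandedness are not given in the sources used here. Testing used edgeR 4.0.16 (R 4.3.3), by the quasi-likelihood test after TMM scaling; low genes were dropped by filterByExpr per comparison, p-values were adjusted by Benjamini-Hochberg over all genes tested, and the study's threshold of 0.01 was kept. Covariates were litter within a sex or a genotype, the 6 groups of sex and litter over all 20 mice, and sex for the slope on KBW. Nothing states how far mice of a group differ in origin beyond their litter, so p-values measure the spread between these mice. Log2 CPM used a prior count of 2. Single values per mouse were compared by exact permutation tests over 252 splits, and correlations by permutation tests with 100000 resamples. Exon lengths and positions came from GENCODE M21. KBW was computed from the weights in the labels, taking the kidney weight as that of 1 kidney. No pair of libraries agreed within sampling noise.

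Total counts per mouse (11307741 to 19324073) set the precision: a gene with no count in a library could still lie below 3 counts. The tests were checked on simulated data. The members and the gene lists were chosen with earlier results of these data known. Named beside the members are the up to 3 genes of each list with the largest called change over both sexes (otherwise up to 2 of the highest level), the 4 genes most like *Csf1*, *Il34* and *Csf1r*, *Pkd2* and *Lyz1*. *Vcam1* was named as a part of its list, and 1 gene that this rule names is not reported here. Results were recomputed with DESeq2 1.42.0 (size factors or Wald test), 1 fit to all 20 mice, litter left out of the model, no filter on low counts or one of 10 counts in each library, other covariates of the slope, a prior count of 0.5, medians, and each mouse left out in turn. The threshold of 0.05 was added after seeing the data.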

Additional observations from a re-analysis of the deposited data

Results flagged for a closer look

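Groups of 5 mice were searched for a mouse whose distance to its nearest neighbour was over 0.71 of the group's range, for the 10 genes and KBW. Of 44 groups, 3 held such a mouse, and chance alone flags about 5% of groups. *Il34* in MM1, at 74.66 CPM, stood apart from the other male mutants, of which the next was at 48.99 CPM. *Cd68* in FC3, at 5.246 CPM, stood apart from the other female controls, of which the next was at 4.328 CPM. KBW of MC5, at 0.8958%, stood apart from the other male controls, of which the next was at 0.6775%. MM1 was the male mutant of highest KBW and led for all 10 genes, but its gap was beyond this limit for *Il34* alone among them. Without MM1 the log2 fold change of *Il34* in males was 0.74.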

How the results depend on the processing

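The members' direction in mutants against controls did not change in any setting run. In males 7 members were called, and 7 to 9 under the settings that keep every mouse, against 1 (without MC4) to 9 (without MM2) with 1 mouse left out. In females the count of 1 became 8 with DESeq2's Wald test, 4 with no filter on low counts, 2 with no litter term, 8 with all 20 mice in 1 fit and 6 at an adjusted p under 0.05, and 0 to 9 (without FM4, *Trem2* included) with 1 mouse left out. Over both sexes it was 9, and 8 to 10 in the other settings. Between control sexes the count of 2 became 1 in the fit of all 20 mice and 4 at an adjusted p under 0.05. Between mutant sexes 0 became 1 with the Wald test, 1 in the fit of all 20 mice and 1 at an adjusted p under 0.05. The slope on KBW went from 0 to 6 with the Wald test, to 4 at an adjusted p under 0.05, and to between 0 and 1 (without MM5) with 1 mouse left out. The number of members with a permutation p under 0.05 for r with KBW was 1, and 1 to 3 (without MM5) with 1 mouse left out. That 1 was *Il34*, whose pooled r does not separate KBW from sex. Of the 6 ratio comparisons 3 passed, 0 by medians and 1 to 4 (without FM4) with 1 mouse left out. Among small differences the sign changed: the *Tyrobp* sex-by-genotype term was −0.005015 with DESeq2 size factors and −0.009524 with no litter term, and the male *Csf1* to *Il34* difference was −0.117 by medians and −0.152 to 0.2 with 1 mouse left out. With 1 mouse left out, the sex difference in controls lay between −0.1938 and 0.07017 for *Mrc1* and −0.1453 and 0.2833 for *Lyz2*, and that in mutants between −0.4183 and 0.07386 for *Itgax*. The sex-by-genotype term lay, from without MM1 to without FM3, between −0.669 and 0.003294 for *Csf1*, −0.2318 and 0.1125 for *Csf1r*, −0.5118 and 0.35 for *Cd68*, −1.025 and 0.1129 for *Mrc1*, −1.651 and 0.2009 for *Trem2*, −1.09 and 0.0955 for *Lyz2*, −0.2662 and 0.562 for *Itgax*, −0.1857 and 0.8385 for *Cd14* and −0.5327 and 0.3026 for *Tyrobp*. The cause of these changes was not tested. All-gene counts moved too: from 1185 to between 878 and 2001 in males and from 92 to between 89 and 928 in females with every mouse kept, to between 187 (without MC4) and 1863 (without MM2) in males and between 3 (without FC2) and 866 (without FM4) in females with 1 mouse left out, and from 0 to 577 for the slope and to 18 for the sex-by-genotype term with the Wald test. No paired analysis was possible because the mouse numbers were given in accession order and pair no mice; litter entered as a covariate.

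Depth limits *Trem2*, with at most 4 counts in any control, and FM4, whose low counts are sparse. Whole-kidney RNA gives no cell numbers. Litter and mouse are joined where a litter holds 1 mouse of a group.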

Other observations

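No rise was called among marker genes of the proximal tubule and of other nephron segments. Of 5 tested proximal tubule genes, 0 were called over both sexes by edgeR's test, and the median log2 fold change was −0.204. *Lrp2* had −0.12 (SE 0.105, adjusted p = 0.446) and *Slc34a1* −0.28 (SE 0.125, adjusted p = 0.105). Of 5 tested genes of other nephron segments, 4 were called lower and 0 higher. *Slc12a3*, the sodium chloride cotransporter of the distal convoluted tubule, fell by 1.11 on the log2 scale (SE 0.136, adjusted p = 1.79e-05). *Nphs1*, which encodes nephrin of the podocyte slit diaphragm, had −0.65 (SE 0.117, adjusted p = 0.000543). CPM after TMM scaling are still relative levels, and whether the rise of some genes lowered the values of others was not tested.

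The erythroid list could be read from *Alas2* alone, the erythroid enzyme of heme synthesis, since 4 of its 5 genes, the globins, were listed at 0 in every mouse. *Alas2* was 18.7 ± 3.02 CPM in male controls and 3.86 ± 2.99 in male mutants (SD, n = 5 each), with a log2 fold change over both sexes of −2.16 (SE 0.218, adjusted p = 3.77e-06).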
